A study of Mus musculus with 15 samples.

Results

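Ligands and receptors of the tumor necrosis factor (TNF) superfamily were examined in lungs of mice ventilated with or without hydrogen sulfide (H2S). The family was taken as a fixed list of 36 genes, 18 ligands and 18 receptors, and a gene was measured where a row of the array table carried its symbol and no other. Of the 36 genes, 34 had 1 such row each (16 ligands and all 18 receptors), out of 19934 genes measured in this way. The ligands Tnfsf12 (TWEAK) and Tnfsf13 (APRIL) shared a row with several symbols and have no value of their own here. All mice were male C57BL/6N of 24 to 26 g, anesthetized with ketamine and acepromazine and fitted with an arterial line and a tracheal tube, and their age is not given in the labels. In the H2S-ventilated group 5 mice were ventilated for 6 h with synthetic air containing 80 ppm H2S. In the air-ventilated group 5 mice were ventilated for 6 h with synthetic air alone, and the ventilator delivered 12 ml/kg per breath at a positive end-expiratory pressure of 2 cmH2O in both ventilated groups. The control group of 5 mice was left to breathe synthetic air without the ventilator over the same 6 h, and mice that breathed H2S without the ventilator were not analysed here. RNA came from the whole inferior right lobe, with 1 array per mouse. Lavage fluid was collected from the lungs at the end of the experiment according to the study's methods.

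TNF superfamily ligands are mostly trimeric proteins on the cell surface that act there or after being shed. Their receptors fall into those with a cytoplasmic death domain, which can recruit caspases through the adaptors Tradd and Fadd, those that bind TRAF adaptor proteins and lead to NF-kB and JNK signaling, and decoys that bind ligand without signaling. In the lung, members of the family are known for leukocyte recruitment, survival of lymphocytes, death of epithelial cells and repair after injury.

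Ventilation went along with opposite changes inside the family. With H2S, 3 of 34 members were higher than in control lungs (Tnfsf14, Fas and Tnfrsf12a) and 5 were lower (Tnfsf10, Tnfsf13b, Cd40, Tnfrsf19 and Tnfrsf11b), while 26 did not pass the test. The test was limma on log2 intensities with p-values adjusted by Benjamini-Hochberg over all rows, and a member passed at an adjusted p under 0.05. Of all 19934 genes, 4.68% passed as higher and 4.07% as lower in this comparison. Ventilation with air gave 2 higher members (Tnfsf14 and Fas) and 4 lower ones (Tnfsf10, Tnfsf13b, Cd40 and Tnfrsf19), and 28 did not pass, beside 1.95% of all genes higher and 1.95% lower. None of the 34 members passed between the H2S-ventilated and the air-ventilated lungs, where 0.0803% of all genes did. At an unadjusted p under 0.05, 12 members differed with H2S against control, 17 with air against control and 4 between the ventilated groups. Of all 19934 genes, 4534, 3153 and 1177 did so in these 3 comparisons. Both comparisons with control use the same 5 control mice, so their results are not independent. In whole lobes, fewer cells of a type and less RNA per cell cannot be told apart.

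**Figure D1:**
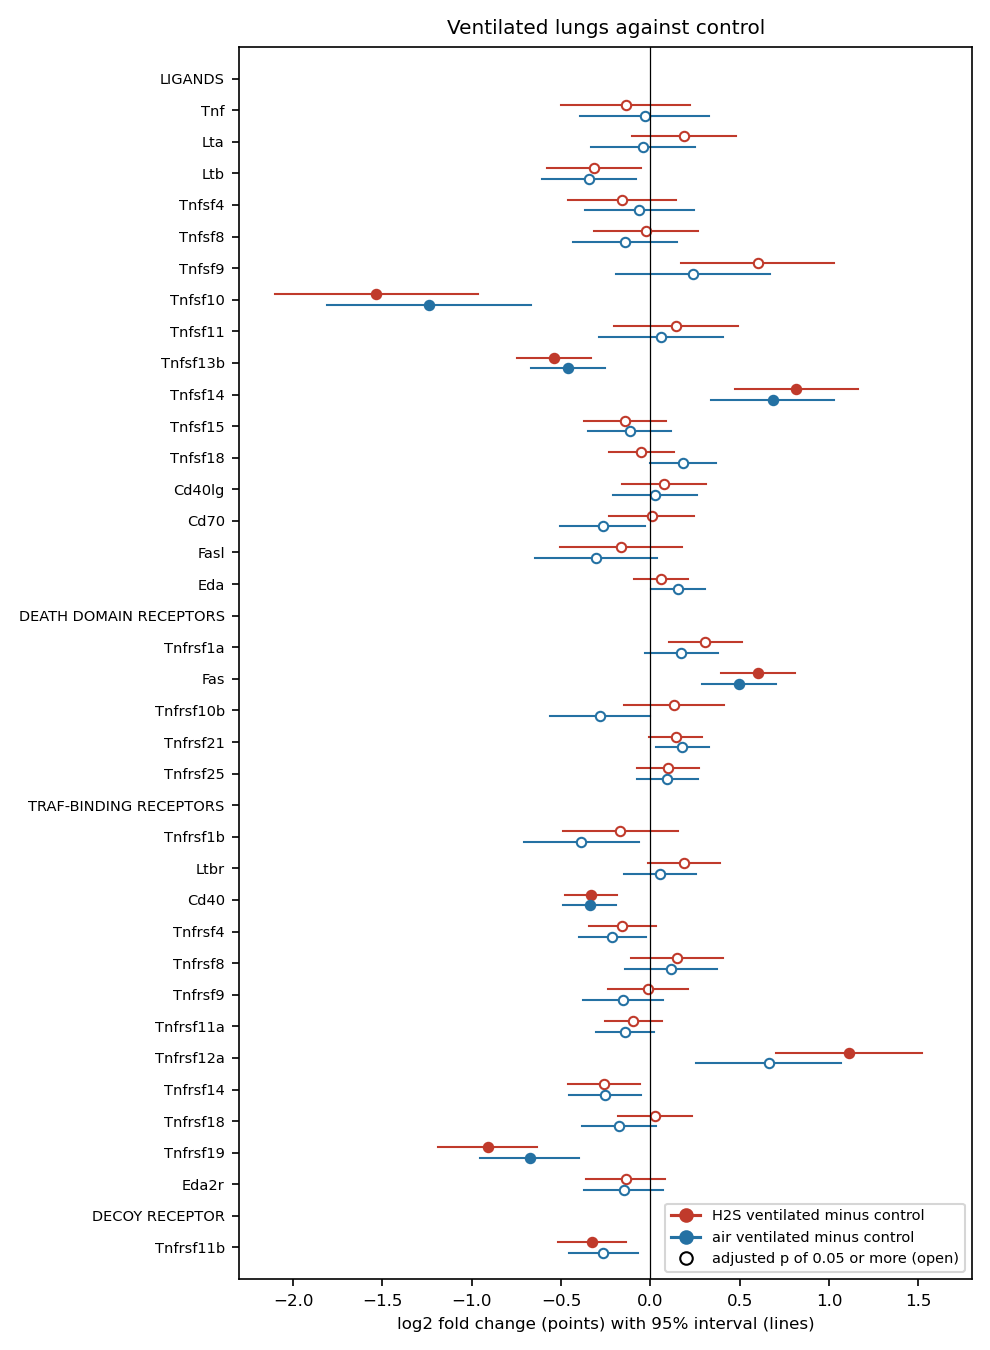
Log2 fold change against control of each of the 34 members (x axis), with its 95% interval as a line, for H2S-ventilated (red) and air-ventilated (blue) lungs, n = 5 mice per group. Filled points passed an adjusted p of 0.05. Tnfsf10 and Tnfrsf19 lie furthest to the left and Tnfrsf12a and Tnfsf14 furthest to the right, while Tnf and Lta straddle 0.

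The fitted log2 fold changes of the 34 members had a median of -0.02 with H2S, against -0.004 over all genes, and of -0.13 with air, against 0.008 over all genes. Their median size without sign was 0.16 with H2S and 0.18 with air, beside 0.11 and 0.09 over all genes. By the thresholds used in the study (p at most 0.005, adjusted p at most 0.1 and at least 1.7-fold), 4 members passed with H2S (Tnfsf10, Tnfsf14, Tnfrsf12a and Tnfrsf19), where 1.31% of all genes passed. Tnfsf10 alone passed them with air, where 0.813% of all genes passed, while with folds from group medians 3 members passed with air, and 2 in mice with label numbers 1 to 12. For the group medians and the label numbers the share of all genes was not counted. Between the ventilated groups these thresholds took in 0.0652% of all genes and no member.

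The upstream sequences of these 4 genes are shown because with H2S they had the largest changes of the family, in opposite directions. They are the 250 bases before the RefSeq transcription start (GRCm38.p6), written 5' to 3' on the gene's strand, with any match to the motifs searched in capitals. Tnfsf14 lies at chr17:57194182-57194431 (minus strand), Tnfrsf12a at chr17:23677450-23677699 (minus strand), Tnfsf10 at chr3:27316827-27317076 (plus strand) and the more upstream of the pair of Tnfrsf19 promoters at chr14:61046856-61047105 (minus strand).
Tnfsf14: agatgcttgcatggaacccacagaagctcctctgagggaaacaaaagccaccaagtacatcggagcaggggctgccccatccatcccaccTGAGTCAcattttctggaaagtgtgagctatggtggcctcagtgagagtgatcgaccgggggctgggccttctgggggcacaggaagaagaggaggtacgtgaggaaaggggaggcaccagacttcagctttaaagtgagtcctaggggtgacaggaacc
Tnfrsf12a: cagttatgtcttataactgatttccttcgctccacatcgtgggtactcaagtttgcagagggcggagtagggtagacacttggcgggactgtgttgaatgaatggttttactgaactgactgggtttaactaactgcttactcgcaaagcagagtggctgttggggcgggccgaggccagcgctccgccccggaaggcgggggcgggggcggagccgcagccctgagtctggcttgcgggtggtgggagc
Tnfsf10: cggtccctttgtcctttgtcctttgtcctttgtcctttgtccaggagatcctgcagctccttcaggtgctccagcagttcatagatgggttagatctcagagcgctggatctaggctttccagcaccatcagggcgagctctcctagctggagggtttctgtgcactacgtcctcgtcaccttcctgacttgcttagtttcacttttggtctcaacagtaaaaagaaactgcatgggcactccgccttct
Tnfrsf19: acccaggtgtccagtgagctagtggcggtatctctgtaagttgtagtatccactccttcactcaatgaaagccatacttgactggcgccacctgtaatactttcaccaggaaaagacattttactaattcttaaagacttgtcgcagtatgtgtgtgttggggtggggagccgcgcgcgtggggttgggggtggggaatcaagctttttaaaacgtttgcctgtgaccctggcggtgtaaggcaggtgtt
Both strands were searched for the AP-1 motif (TGACTCA or its reverse complement TGAGTCA), the CRE motif (TGACGTCA) and the NF-kB consensus, motifs that do not overlap in the matches shown. The capitals in Tnfsf14 mark TGAGTCA, 160 to 154 bases before the start. The other 3 sequences and the remaining Tnfrsf19 promoter held none of these letters in this window, which says nothing about binding of the factors. Of the other members, AP-1 motifs were found in Fas and Tnfsf13b, which passed against control, in Tnfrsf8 and Tnfrsf9, which did not, and in Tnfsf13, which has no value here. Over 32 promoters of 28 members, AP-1 was found in 6, CRE in 0 and the NF-kB consensus in 4, and over all 32851 promoters in the same window the motifs were found in 4.46%, 1.55% and 7.25%. A match is a description of the letters only.

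Among the ligands, Tnfsf10 and Tnfsf13b fell and Tnfsf14 rose in both ventilated groups, and the other 13 measured ligands passed in neither comparison with control. Tnfsf10 (TRAIL) triggers apoptosis through the death receptor Tnfrsf10b. Its intensity was 339.7, 346, 463, 576 and 967 in H2S-ventilated mice and 366, 569, 573, 720.3 and 982 in air-ventilated mice, against 1286, 1354, 1364, 1484 and 1749 in control mice. Every ventilated mouse lay below every control mouse, and the highest values in the ventilated groups belonged to H2S mouse 15_20 and air mouse 34_22. The log2 fold change was -1.53 ± 0.27 (SE, adjusted p = 0.00244) with H2S, which is 2.89-fold lower, and -1.24 ± 0.27 (adjusted p = 0.016) with air, which is 2.36-fold lower. The 95% intervals ran from -2.10 to -0.96 with H2S and from -1.81 to -0.67 with air.

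Tnfsf13b (BAFF), a survival factor for B cells, had intensities of 548, 558, 649.9, 659.7 and 734 in H2S-ventilated mice and 551, 613, 678, 718 and 762 in air-ventilated mice, against 863, 886, 905, 922 and 975 in control mice. Again no ventilated mouse reached the lowest control mouse. Its log2 fold change was -0.54 ± 0.10 (adjusted p = 0.00322) with H2S and -0.46 ± 0.10 (adjusted p = 0.0144) with air, below the fold that the study's thresholds require.

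Tnfsf14 (LIGHT), a ligand of Ltbr and Tnfrsf14 made by activated leukocytes, had intensities of 202, 263, 291, 299 and 317 in H2S-ventilated mice and 201, 207, 247, 282 and 320.5 in air-ventilated mice. Control mice had 126, 126, 153, 186 and 192, so that the groups did not overlap, but the lowest ventilated mice lay close to the highest control mice. The log2 fold change was 0.82 ± 0.16 (adjusted p = 0.00501) with H2S and 0.68 ± 0.16 (adjusted p = 0.0265) with air. The air result no longer passed when control mouse 5_1, 7_9 or 6_5 or air mouse 11_6 or 35_26 was left out, with an adjusted p of 0.0171 to 0.0838 over all single omissions.

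Tnf itself, the founding ligand and an early inflammatory cytokine, had overlapping values of 69.7 to 109 in H2S-ventilated mice, 64.9 to 125 in air-ventilated mice and 81.9 to 114 in control mice. Its log2 fold change was -0.14 ± 0.17 (adjusted p = 0.745) with H2S and -0.03 ± 0.17 (adjusted p = 0.983) with air, with 95% intervals of -0.50 to 0.22 and -0.39 to 0.33. Lta, which like Tnf binds Tnfrsf1a and Tnfrsf1b, lay at 56.6 to 85.1 in H2S-ventilated mice, 46.5 to 61.2 in air-ventilated mice and 42.6 to 68.7 in control mice, with a log2 fold change of 0.19 ± 0.14 with H2S and -0.04 ± 0.14 with air. Ltb, the partner of Lta in the membrane lymphotoxin that binds Ltbr, lay at 171 to 214 in H2S-ventilated mice, 157 to 219 in air-ventilated mice and 193 to 310.2 in control mice. Its log2 fold change was -0.32 ± 0.12 with H2S and -0.35 ± 0.12 with air, and the adjusted p of 0.144 and 0.175 missed the threshold. Thus the 3 founding ligands, which lie next to each other in the genome, passed in no comparison.

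The largest log2 fold change among ligands that did not pass was that of Tnfsf9 (4-1BB ligand, a T cell costimulator), at 0.60 ± 0.20 with H2S (adjusted p = 0.0852) and 0.24 ± 0.20 with air (adjusted p = 0.731). With H2S it passed by CyberT, a regularized test run as an alternative (adjusted p = 0.0107). H2S mouse 4_8 had the highest Tnfsf9 intensity, at 235, and the H2S-ventilated group (111 to 235) overlapped with the control group (82.1 to 113). The costimulatory ligands Tnfsf4, Tnfsf8, Tnfsf18, Cd40lg and Cd70, the death ligand Fasl, the ligand Tnfsf15, the osteoclast factor Tnfsf11 (RANKL) and the ectodermal ligand Eda had log2 fold changes against control between -0.30 (Fasl, air) and 0.18 (Tnfsf18, air).

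**Figure D2:**
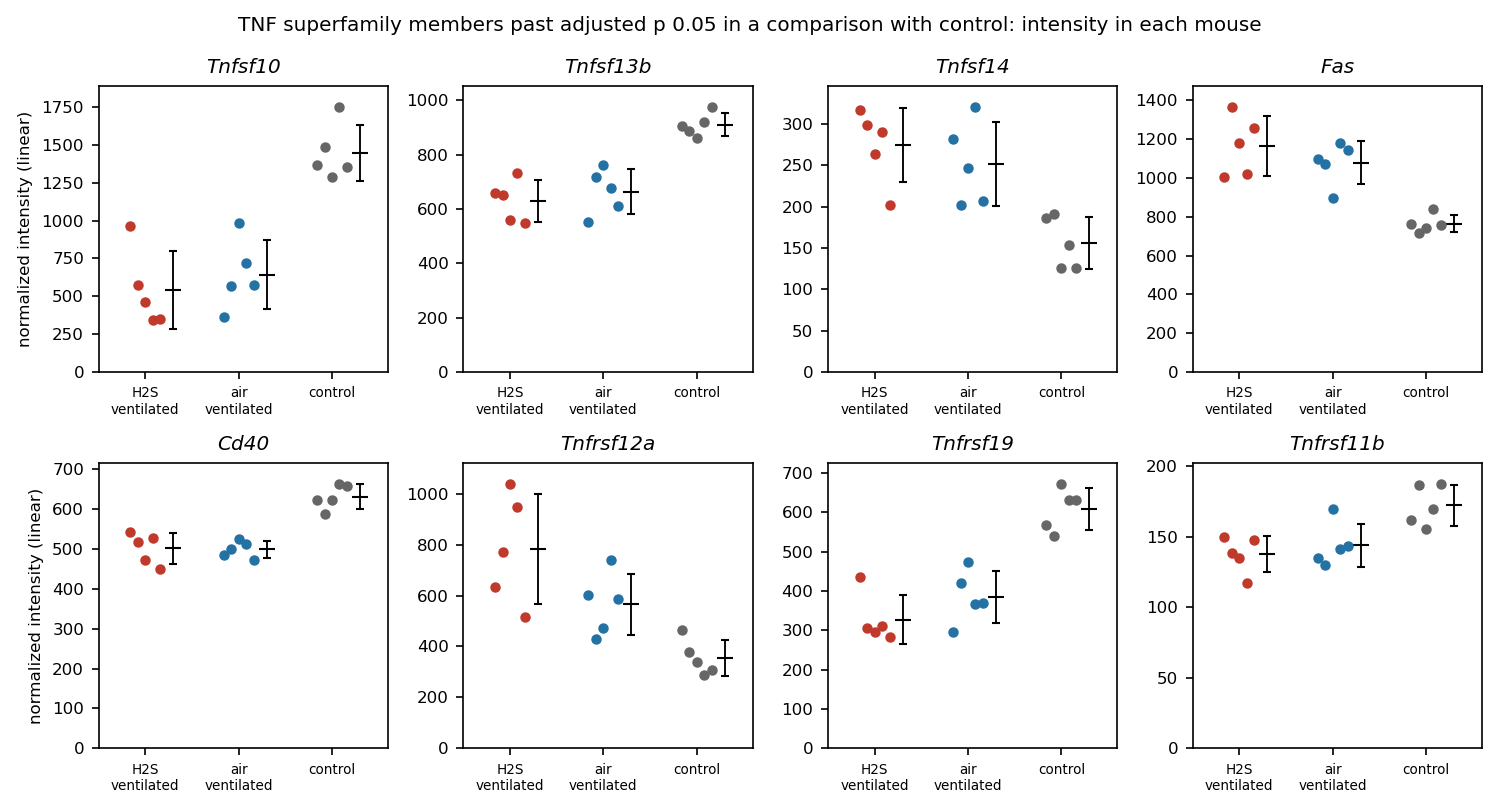
Normalized intensity on a linear scale (y axis, starting at 0) of the 8 members that passed against control, 1 point per mouse, for H2S-ventilated (red), air-ventilated (blue) and control (grey) lungs. Black bars are the mean and SD of 5 mice. For Tnfsf10, Tnfsf13b, Tnfsf14, Fas, Cd40 and Tnfrsf19 no ventilated mouse overlaps with a control mouse, whereas for Tnfrsf12a and Tnfrsf11b the air-ventilated mice do. The members shown were picked by a test on the same values, and the share of all genes separated in this way was not counted.

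Of the 5 receptors with a death domain, Fas alone passed. Fas, the receptor of Fasl that assembles a caspase-activating complex, had intensities of 1005, 1022, 1179, 1256 and 1366 in H2S-ventilated mice and 896, 1071, 1101, 1147 and 1183 in air-ventilated mice, against 719, 744, 755, 762 and 838 in control mice. All ventilated mice lay above all control mice. Its log2 fold change was 0.60 ± 0.10 (adjusted p = 0.00147) with H2S and 0.50 ± 0.10 (adjusted p = 0.00916) with air, or 1.52-fold and 1.41-fold. Its ligand Fasl did not pass, with log2 fold changes of -0.17 with H2S and -0.30 with air.

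Tnfrsf1a, the main TNF receptor on most cells, had intensities of 1897 to 2313 in H2S-ventilated mice and 1575 to 2210.5 in air-ventilated mice, against 1524 to 1842 in control mice. The H2S-ventilated mice all lay above the control mice, but the log2 fold change of 0.31 ± 0.10 did not pass over all rows (adjusted p = 0.0646), and that with air was 0.17 ± 0.10 (adjusted p = 0.483). Tnfrsf10b, the mouse death receptor for Tnfsf10, had log2 fold changes of opposite sign that did not pass, 0.13 ± 0.13 with H2S and -0.28 ± 0.13 with air. Tnfrsf21 (DR6) had 0.14 with H2S and 0.18 with air, and Tnfrsf25 (DR3, the receptor of Tnfsf15) had 0.10 with H2S and 0.10 with air.

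Among the 12 TRAF-binding receptors, Tnfrsf12a rose and Tnfrsf19 and Cd40 fell with H2S, and Tnfrsf19 and Cd40 fell with air as well. Tnfrsf12a (Fn14), the receptor of Tnfsf12, is known to be induced in injured and growing tissue. Its intensity was 518, 635, 771, 949.6 and 1039.7 in H2S-ventilated mice and 430.1, 472, 586, 601 and 738 in air-ventilated mice, against 286, 309, 341, 380.0 and 465 in control mice. All H2S-ventilated mice lay above the control mice, and the lowest air-ventilated mouse lay below the highest control mouse, 12_21. The log2 fold change was 1.11 ± 0.19 (adjusted p = 0.00226) with H2S, or 2.16-fold, and 0.66 ± 0.19 (adjusted p = 0.0763) with air, or 1.58-fold. With air it passed when control mouse 12_21 or H2S mouse 9_12 was left out (adjusted p from 0.0416 to 0.183 over single omissions). It also passed by CyberT (adjusted p = 0.00124).

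Tnfrsf19 (TROY), a receptor of epithelial and nervous tissue, had intensities of 284, 295, 306, 312 and 437 in H2S-ventilated mice and 295, 366, 369, 422 and 474 in air-ventilated mice. Control mice had 541, 567.5, 631, 632 and 673, above every ventilated mouse, and H2S mouse 15_20 and air mouse 34_22 were again the highest of their groups. The log2 fold change was -0.91 ± 0.13 (adjusted p = 0.000716) with H2S, or 1.88-fold lower, and -0.68 ± 0.13 (adjusted p = 0.00878) with air, or 1.60-fold lower. No other member had a smaller adjusted p in either comparison with control.

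Cd40, the receptor through which Cd40lg of T cells activates B cells and antigen-presenting cells, had intensities of 451, 472, 518, 526 and 542 in H2S-ventilated mice and 471, 484, 500.4, 512 and 525 in air-ventilated mice. Control mice had 587, 622, 624, 658 and 663, and no values overlapped with those of ventilated mice. The log2 fold change was -0.33 ± 0.07 (adjusted p = 0.00683) with H2S and -0.34 ± 0.07 (adjusted p = 0.0111) with air, about 1.26-fold and 1.27-fold lower. By CyberT the H2S result did not pass (adjusted p = 0.0602). Cd40lg did not pass, with log2 fold changes of 0.08 with H2S and 0.03 with air.

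Tnfrsf1b, the second TNF receptor, found mainly on leukocytes and endothelium, had overlapping intensities of 464 to 698 in H2S-ventilated mice, 392 to 612 in air-ventilated mice and 549.9 to 845 in control mice. Its log2 fold change was -0.17 ± 0.15 (adjusted p = 0.621) with H2S and -0.39 ± 0.15 (adjusted p = 0.221) with air. The receptors of Tnfsf14 did not pass either: Ltbr had 0.19 ± 0.10 with H2S and 0.05 ± 0.10 with air, and Tnfrsf14 (HVEM) had -0.26 ± 0.10 in each comparison (adjusted p = 0.119 with H2S and 0.193 with air). The remaining receptors Tnfrsf4, Tnfrsf8, Tnfrsf9 and Tnfrsf18 of activated lymphocytes, Tnfrsf11a (RANK) and Eda2r had log2 fold changes between -0.21 (Tnfrsf4, air) and 0.15 (Tnfrsf8, H2S).

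The soluble decoy receptor Tnfrsf11b (osteoprotegerin) binds Tnfsf11 and Tnfsf10. It had intensities of 117, 135, 138, 147 and 149 in H2S-ventilated mice and 129.9, 135, 141, 143 and 169.7 in air-ventilated mice, against 155, 162, 169.6, 187 and 187 in control mice. The H2S-ventilated mice lay below all control mice, while air mouse 34_22 lay among them. The log2 fold change was -0.33 ± 0.09 (adjusted p = 0.0359) with H2S and -0.26 ± 0.09 (adjusted p = 0.149) with air. The H2S result had the largest adjusted p of those that passed. It was lost when control mouse 13_25, 7_9 or 6_5 or H2S mouse 27_28, 4_8 or 1_4 was left out (adjusted p from 0.023 to 0.0938 over single omissions) and by CyberT (adjusted p = 0.169), and the air result passed without air mouse 34_22 (adjusted p = 0.0495).

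Set side by side, ligands and receptors of 1 axis did not all move in the same way. Tnfsf10 fell in both ventilated groups, its receptor Tnfrsf10b did not pass, and its decoy Tnfrsf11b fell with H2S. Tnfsf14 rose while its receptors did not pass, and Fas and Cd40 changed in opposite directions while their ligands did not pass. For Tnfrsf12a the ligand Tnfsf12 had no row of its own.

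H2S-ventilated and air-ventilated lungs were compared directly, the comparison in which the labels differ in the gas alone. No member passed by limma (smallest adjusted p = 0.493, for Tnfrsf10b), and none by CyberT, for which 3 members had an unadjusted p under 0.05. The share of all genes with such a p by CyberT was not counted. The 4 members with an unadjusted p under 0.05 by limma were Tnfrsf10b (0.41 ± 0.13 on the log2 scale), Tnfrsf12a (0.45 ± 0.19), Cd70 (0.28 ± 0.11) and Tnfsf18 (-0.23 ± 0.09). Cd70 and Tnfsf18 were dim, with mean intensities of 68.9 and 60.2 with H2S and 57 and 70.9 with air. The medians of the air-ventilated arrays were 179.1 to 187. Tnfrsf10b intensities were 286, 308, 325, 349 and 446 in H2S-ventilated mice and 203, 225, 256, 290.0 and 314 in air-ventilated mice, with control mice at 269 to 347. The ventilated groups overlapped, as they did for every member. For Tnfrsf12a the 95% interval of the difference was 0.04 to 0.86, for Tnfsf10 it was -0.86 to 0.28 and for Tnfrsf19 -0.51 to 0.04. The intervals were narrower for Fas (-0.10 to 0.31) and Cd40 (-0.14 to 0.15). Since the intervals leave room for differences of either sign in most members, equal levels are not shown. Over the 34 members the median log2 difference was 0.05, beside -0.006 over all genes, and 23 were above 0.

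**Figure D3:**
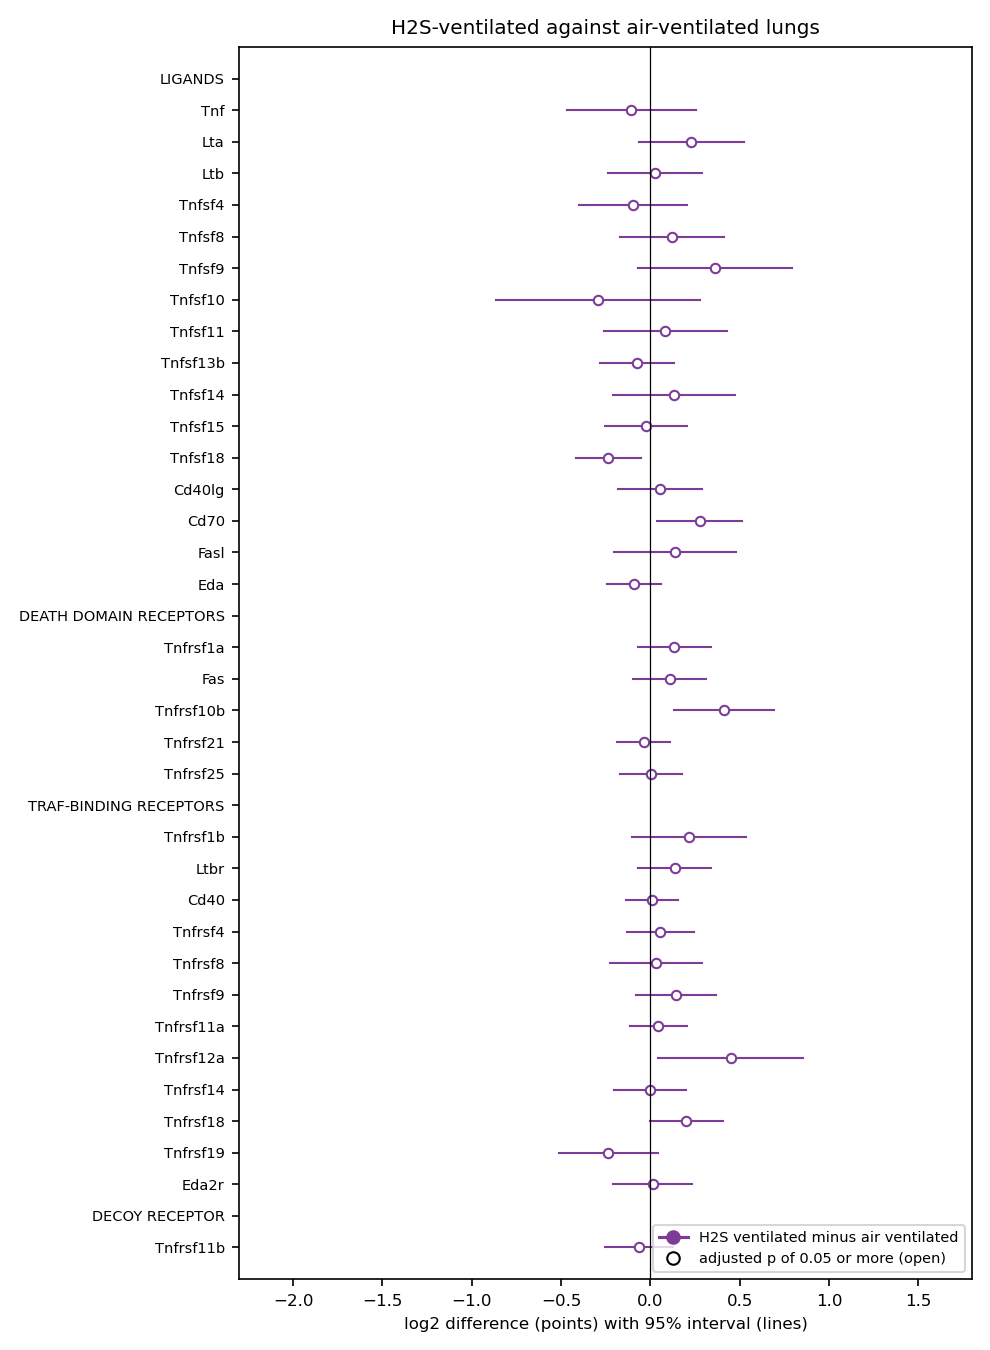
Log2 difference between H2S-ventilated and air-ventilated lungs (x axis, same range as in the plot against control) for each of the 34 members, with its 95% interval as a line, n = 5 mice per group. All points are open, since none passed an adjusted p of 0.05. Tnfrsf12a (0.45) and Tnfrsf10b (0.41) are highest and Tnfsf10 (-0.29) is lowest.

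Beyond the ligands and receptors, 7 lists of pathway genes held 71 genes, of which 66 had a row of their own. By CyberT 8 of the 66 passed with H2S and 5 with air, and the share of all genes that passed by CyberT was not counted. With H2S 3 of the 66 were higher and 6 lower by limma, and with air 0 were higher and 5 lower. Between the ventilated groups none passed by limma or CyberT. By limma 10 of the 66 had an unadjusted p under 0.05 there, beside 1177 of all 19934 genes. The median log2 fold change of the 66 genes was -0.01 with H2S and -0.03 with air. In either direction, 13.6% of the pathway genes passed by limma with H2S, beside 8.75% of all genes. With air 7.58% passed, beside 3.89% of all genes.

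Among 10 further TNF receptor family genes, 3 fell with H2S and 2 with air. Tnfrsf13c, the BAFF receptor of B cells, fell by 0.86 on the log2 scale with H2S (adjusted p = 0.00675) and by 0.79 with air (adjusted p = 0.02). Tnfrsf22, a mouse decoy receptor for Tnfsf10, fell by 0.48 (adjusted p = 0.00646) and by 0.41 (adjusted p = 0.0293), and every ventilated mouse lay below the control mice for both genes. Tnfrsf13b (TACI), which also binds Tnfsf13b, fell by 0.35 with H2S (adjusted p = 0.0399), a result that did not pass by CyberT (adjusted p = 0.115), and had a log2 fold change of -0.24 with air (adjusted p = 0.265).

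Of 8 measured adaptors and TRAF proteins, Traf5, which carries signals from Cd40 and Ltbr, fell with H2S (-0.54 ± 0.11, adjusted p = 0.00791) and did not pass with air (-0.42 ± 0.11, adjusted p = 0.0529). Traf1 had -0.44 with H2S and 0.08 with air, and Traf6 0.15 and 0.07, none of which passed by limma, while Traf1 with H2S passed by CyberT (adjusted p = 0.0437). Between the ventilated groups Traf1 differed by -0.52 ± 0.14 (unadjusted p = 0.00161 by limma), which did not pass (adjusted p = 0.298). Of 10 genes for ubiquitin enzymes and their partners at TNF receptors, Rbck1, a subunit of the linear ubiquitin ligase, fell with H2S (-0.33 ± 0.08, adjusted p = 0.013). Rbck1 had -0.22 with air (adjusted p = 0.15), and did not pass with H2S by CyberT (adjusted p = 0.0775). Tnfaip3 (A20), an inhibitor of NF-kB signaling that TNF induces, fell with air (-0.44 ± 0.08, adjusted p = 0.00749) and had -0.20 ± 0.08 with H2S (adjusted p = 0.166). The difference between the ventilated groups, 0.24 ± 0.08, did not pass (adjusted p = 0.586). Birc3 passed in neither comparison (0.23 with H2S and 0.16 with air).

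Of 9 measured kinases and partners leading to NF-kB and JNK, Ikbkg (NEMO), the regulatory subunit of the IkB kinase, rose slightly with H2S by limma (0.23 ± 0.07, adjusted p = 0.0475) but did not pass by CyberT (adjusted p = 0.415). None passed with air by either test, where 0 had an unadjusted p under 0.05 by limma. Map3k5 (-0.20 with H2S, adjusted p = 0.0706) and Tab2 (0.19 with H2S, adjusted p = 0.154) came next. None of 7 measured effectors downstream of death receptors passed with H2S (3 at an unadjusted p under 0.05) or with air (1), by limma or by CyberT. Casp8, the initiator caspase at Fas, had -0.20 with H2S and -0.21 with air, the pseudokinase of necroptosis Mlkl -0.35 and -0.31, and the caspase inhibitor Cflar 0.20 and 0.13. Of 4 sheddase genes, Adam17, the protease that releases soluble Tnf and its receptors, fell with H2S (-0.38 ± 0.09, adjusted p = 0.0118) and with air (-0.36 ± 0.09, adjusted p = 0.0274). Its partners Rhbdf2 (0.22 with H2S and -0.08 with air) and Rhbdf1 (0.14 and 0.13) did not pass. Between the ventilated groups Rhbdf2 differed by 0.30 ± 0.08 (unadjusted p = 0.00153 by limma) and did not pass (adjusted p = 0.29). All H2S-ventilated mice lay above all air-ventilated mice for Rhbdf2, and the share of all genes separated in this way was not counted.

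Of 18 genes that TNF is known to induce, Junb, an AP-1 subunit, rose with H2S (0.76 ± 0.15, adjusted p = 0.00492) and had 0.34 with air (adjusted p = 0.295). Csf2, the growth factor of alveolar macrophages, rose with H2S (0.45 ± 0.13, adjusted p = 0.0442), with overlapping groups, and had 0.14 with air. Vcam1, an endothelial adhesion molecule for leukocytes, fell with air by limma (-0.38 ± 0.08, adjusted p = 0.0124) but did not pass by CyberT (adjusted p = 0.125), and had -0.20 with H2S (adjusted p = 0.133). The other 15 genes, among them the chemokine genes Cxcl1, Cxcl2 and Ccl20, passed in no comparison by limma. By CyberT Cxcl2 passed with H2S (0.78, adjusted p = 0.00771) and Ccl20 with air (0.64, adjusted p = 0.00575). The list's median log2 fold change was 0.10 with H2S and -0.03 with air. Between the ventilated groups 7 of the 18 had an unadjusted p under 0.05 by limma, beside 1177 of all 19934 genes. None passed after adjustment, and the median difference was 0.17. Of the 7, Vcam1, Cxcl2, Il6, Csf2, Tnfaip6 and Junb were higher with H2S and Ccl20 was lower (-0.63). Il6 was very dim, with mean intensities of 23.6 with H2S, 14.2 with air and 18.4 in control lungs. For Cxcl2 only 1 H2S-ventilated mouse lay above all air-ventilated mice.

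**Figure D4:**
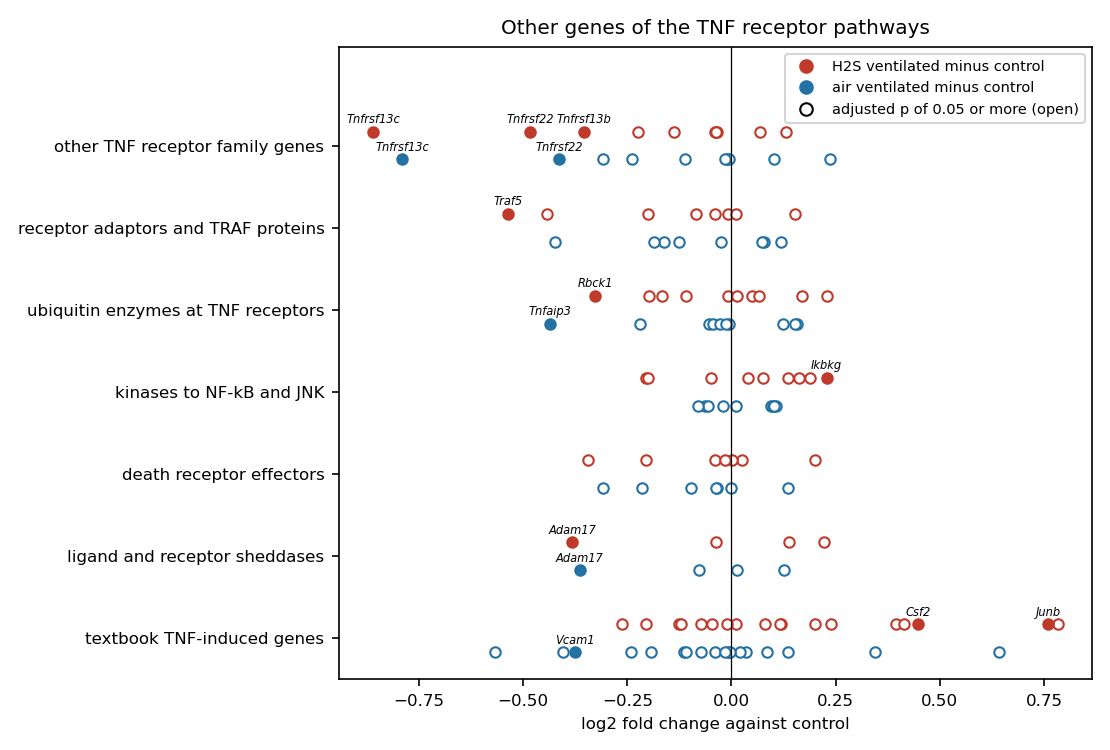
Log2 fold change against control (x axis) of the 66 measured pathway genes, 1 point per gene, in 7 lists (y axis), for H2S-ventilated (red) and air-ventilated (blue) lungs. Filled points with a name passed an adjusted p of 0.05. Tnfrsf13c is furthest to the left in both comparisons, and none of the death receptor effectors is filled.

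Markers of several cell types moved with ventilation in the same lobes. In either direction, 8.75% of all genes passed by limma with H2S and 3.89% with air. All 9 measured B cell markers were lower in both ventilated groups, with a median log2 fold change of -1.06 with H2S and -0.90 with air. Their summed intensity was 1357 to 2638 in H2S-ventilated mice and 1467 to 3431 in air-ventilated mice, against 3647 to 6179 in control mice, with no overlap. Cd40, Tnfrsf13c and Tnfrsf13b are genes of B cells as well, and the part of the B cell markers in their lower levels was not tested. Of 8 NK cell markers, 1 fell with H2S (5 at an unadjusted p under 0.05) and 0 passed with air (4 at an unadjusted p under 0.05), while by CyberT 4 passed with H2S and 2 with air. Their sum was 848 to 2403 in H2S-ventilated and 857 to 3199 in air-ventilated mice, against 2399 to 3981 in control mice. Of 9 T cell markers 1 fell in each comparison with control, with sums of 1802 to 2811, 1438 to 3707 and 2084 to 3436 in the H2S-ventilated, air-ventilated and control groups. NK and T cells can make Tnfsf10, Fasl and Tnfsf14, and the part of these markers was not tested.

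Of 10 neutrophil markers, 3 rose with H2S and 2 with air, and by CyberT 4 passed in each comparison. Their summed intensity was 10092 to 19242 in H2S-ventilated mice and 11421 to 16626 in air-ventilated mice, against 6735 to 11744 in control mice. Of 7 measured alveolar macrophage markers, 5 rose with H2S and 1 with air (5 and 2 passed by CyberT), with sums of 4960 to 5949 in H2S-ventilated mice and 4459 to 5163 in air-ventilated mice, against 3597 to 4174 in control mice. Between the ventilated groups Pparg, an alveolar macrophage marker, was the 1 marker of any list that passed by limma (0.39 ± 0.07, adjusted p = 0.0317). By CyberT it did not pass (adjusted p = 0.101), and the alveolar type I marker Aqp5 did (0.44, adjusted p = 0.0475). Tnfsf14 and Fas rose in both ventilated groups and Tnfrsf12a rose with H2S in the same lungs, and the part of these cells in their levels was not tested. Of 6 monocyte markers 1 rose and 1 fell with H2S and 1 fell with air, while by CyberT 3 passed with H2S and 5 with air. Of 7 dendritic cell markers 1 fell with H2S and 2 fell with air, with the same counts by CyberT. Their sums were 2167 to 2653 in H2S-ventilated and 2048 to 2535 in air-ventilated mice, against 2689 to 3388 in control mice, without overlap. The part of the dendritic cell markers in the lower level of Cd40 was not tested either.

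Endothelial markers, 9 in number, fell for 3 genes with H2S and 2 with air (2 and 4 passed by CyberT), with sums of 29386 to 32439 in H2S-ventilated mice and 28733 to 31914 in air-ventilated mice, against 33208 to 37243 in control mice, without overlap. Of 9 alveolar type II markers 1 rose and 1 fell with H2S (1 passed by CyberT), and 0 passed with air by limma or CyberT (2 at an unadjusted p under 0.05). Their sums of 62921 to 65859 in H2S-ventilated mice and 62701 to 65796 in air-ventilated mice overlapped with those of 61400 to 64778 in control mice, and these genes, which define lung tissue, were bright on every array. Of 6 alveolar type I markers 2 fell with H2S and 0 with air (2 at an unadjusted p under 0.05, 1 passed by CyberT), and of 8 fibroblast markers 0 passed with H2S (3 at an unadjusted p under 0.05, 1 passed by CyberT) and 1 fell with air (2 passed by CyberT). Tnfsf10 and Tnfrsf19 are made by cells of the vessel wall and epithelium, among others, and the part of these markers in their lower levels was not tested.

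**Figure D5:**
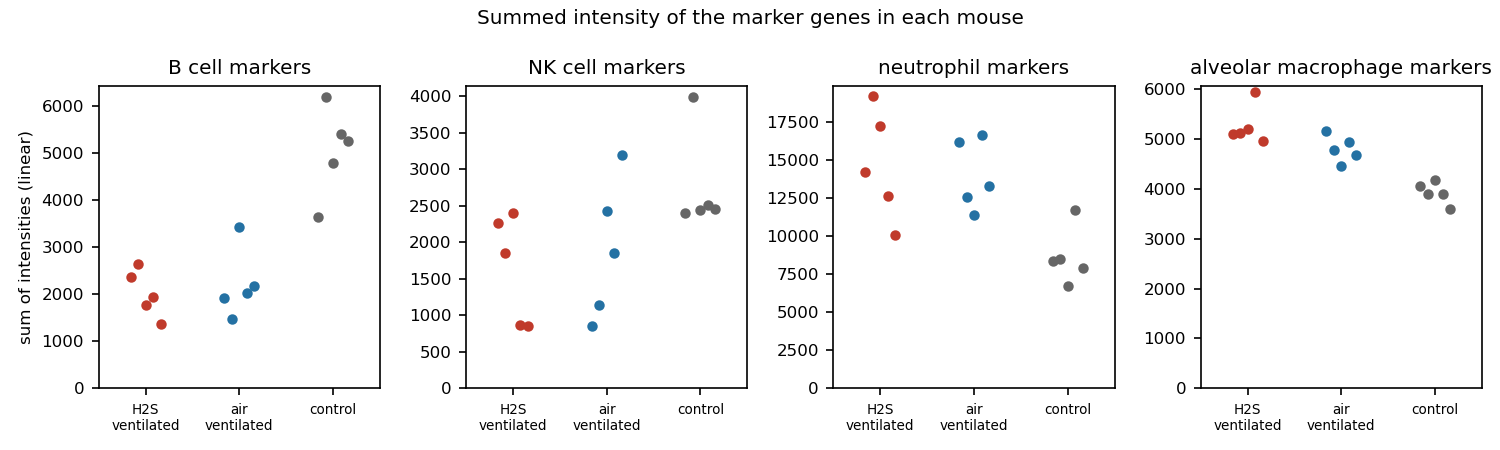
Summed linear intensity of the measured markers of B cells, NK cells, neutrophils and alveolar macrophages (y axes, starting at 0), 1 point per mouse, for H2S-ventilated (red), air-ventilated (blue) and control (grey) lungs. B cell sums of ventilated mice lie below and alveolar macrophage sums above those of all control mice, while NK cell and neutrophil sums overlap between the groups.

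The median intensity of the arrays was 179.8 to 184.6 in H2S-ventilated, 179.1 to 187 in air-ventilated and 184 to 187 in control lungs. The deposited values were quantile normalized, so similar medians follow from the processing. The second number in the mouse labels forms a low set (1 to 12, 3 mice per group) and a high set (20 to 28, 2 mice per group) whose meaning the labels do not give. The 8 members that passed kept their direction against control in both sets, for H2S and for air. Tnfsf10 had log2 fold changes of -1.83 with H2S and -1.56 with air in the low set and -1.09 and -0.76 in the high set. Tnfrsf12a had 1.22 and 0.78 in the low set and 0.95 and 0.49 in the high set, and Tnfrsf19 had -1.10 and -0.85 in the low set and -0.63 and -0.41 in the high set. With 3 mice per group 5 members passed with H2S and 2 with air, and with 2 per group none did, with 8 and 5 members at an unadjusted p under 0.05. The share of all genes in these smaller fits was not counted. Mice 15_20 and 34_22, the highest ventilated mice for Tnfsf10 and Tnfrsf19, belong to the high set.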

How the data were processed

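Total RNA from 15 inferior right lobes was hybridized to Affymetrix whole-transcript arrays, 1 array per mouse. The deposited intensity values were made by the authors with Genedata Expressionist Refiner, by subtraction of a GC-dependent background measured with anti-genomic probes, quantile normalization and RMA summarization, and they are linear intensities. Quantile normalization gives all arrays the same overall distribution, so that changes are relative to the bulk of transcripts. RMA was also named in the submitters' processing notes. The design had been written for log2 values, and the deposited values were therefore log2-transformed without an offset.

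Of the 28361 rows, 21780 carried 1 gene symbol, 1617 several and 4964 are unnamed here. A gene was represented by the row with the highest mean log2 value among rows with its symbol alone. The family members and the 7 pathway and 11 marker lists were chosen with earlier results of these data known, so no list is independent evidence. Groups were compared with limma 3.58.1 in R 4.3.3, in 1 fit of all 15 arrays without a covariate, with p-values adjusted by Benjamini-Hochberg over all rows. The study's methods name a regularized Bayesian test, which was run as an alternative (CyberT; confidence 15, window 101). Both tests were first run on simulated data with known changes, and the results were checked against set limits for limma alone. Errors of fold changes are standard errors of the fit, 95% intervals are from the same fit, and levels set on different rows were not compared with each other. Precision is limited by the number of arrays, 5 per group. The labels do not say whether mice shared a litter or a day. The p-values take the mice as independent, which could not be checked.

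Values in each mouse are given for members that passed in at least 1 comparison, and Tnf, Lta, Ltb, Tnfrsf1a, Tnfrsf1b and Fas were named in any case. Up to 3 genes with the smallest adjusted p against control were named per pathway list. Other genes were named after their values were seen. Promoter sequences were those of RefSeq on GRCm38.p6. Alternatives were another normalization, a filter on dim rows, an offset of 50, array weights, a variance trend, a test of only the groups compared, blocks from the label numbers, folds from group medians and leaving out each mouse.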

Additional observations from a re-analysis of the deposited data

Results flagged for a closer look

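In 10 of 102 groups of 5 mice, 1 mouse lay far from the other 4 by Dixon's test, which chance alone would give for about 1 in 20 groups, or 5.1. H2S mouse 15_20 was high for Tnfrsf19 (436.69, others 284 to 312) and Eda2r (81.74, others 66.8 to 70.0). H2S mouse 4_8 was high for Tnfrsf21 (1430.68, others 1179 to 1219) and Tnfrsf9 (185.88, others 139 to 147). Air mouse 34_22 was low for Tnfsf8 (39.63, others 58.9 to 67.9) and air mouse 6_2 was low for Eda (197.48, others 219.6 to 224). Control mouse 13_25 was high for Fasl (105.33, others 84.2 to 89.5) and Tnfrsf18 (188.68, others 149 to 158). Control mouse 5_1 was high for Ltbr (512.51, others 432 to 448) and control mouse 6_5 was low for Cd40lg (35.28, others 41.5 to 43.5). Of these genes Tnfrsf19 alone passed against control, and it passed in both comparisons without each mouse in turn, with an adjusted p of at most 0.00328 with H2S and 0.0295 with air.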

How the results depend on the processing

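The count of members passing an adjusted p of 0.05 was 7 to 9 with H2S and 5 to 7 with air when each mouse was left out in turn, beside 8 and 6 with all mice, and 0 in each case between the ventilated groups. By the study's thresholds these counts were 3 to 4 with H2S and 1 with air. In the low set of label numbers alone (1 to 12, 3 mice per group) 5 members passed with H2S and 2 with air, and 2 passed the study's thresholds with air. In the high set alone (20 to 28, 2 mice per group) 0 passed with H2S and 0 with air by either rule, with 8 and 5 members at an unadjusted p under 0.05, and fewer mice enter these fits. With folds from group medians, 3 members passed the study's thresholds with air in place of 1. Mice whose label numbers lie in the same run of 4 deviated from their group means with a mean correlation of 0.179 over 13 pairs (-0.179 to 0.358), against -0.037 between runs. Of these pairs 10 exceeded 0.1 and 3 did not, and 3 of 14 mice correlated best with a mouse of their own run. The labels give no shared source, and the runs were not taken as a pairing. With them as a replicate block, 8 members passed with H2S, 7 with air and 0 between the ventilated groups. For none of these alternatives was the share of all genes counted, so their counts are not set against all genes. Under this block Tnfrsf11b with H2S did not pass (adjusted p = 0.0683) and Tnfrsf12a with air did (adjusted p = 0.0399). Tnfrsf12a with air also passed after another quantile normalization (adjusted p = 0.0466), without the dimmest rows (adjusted p = 0.0477) and with array weights (adjusted p = 0.038). Tnfrsf11b with H2S missed the threshold on arrays centred on their medians (adjusted p = 0.0505) and with only the groups compared (adjusted p = 0.0556), and with air it passed with array weights (adjusted p = 0.025). Between the ventilated groups, where neither gene passed, the log2 difference of Cd40 (0.01) turned to -0.01 after quantile normalization (-0.00501), -0.0142 with the block, -0.0348 in the high set and -0.0216 to 0.0453 over single omissions, and that of Tnfsf13b (-0.08) turned to 0.0366 in the low set. The cause of these changes was not tested. No result that passed against control changed direction under any alternative listed here, and each gene is represented by 1 row, so that averaging rows changed nothing. The values used carry no detection calls, so which members lay near background is not known, and the lowest intensity of any member was 30.6 (Tnfsf4).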
